A study of Mus musculus with 12 samples.

Results

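The genes described here are 10 markers of mouse mast cells: the proteases Cpa3, Mcpt4, Cma1, Tpsb2 and Tpsab1, the IgE receptor subunits Fcer1a and Ms4a2, the histamine-forming enzyme Hdc and the receptors Mrgprb1 and Mrgprb2. They were found by mapping the 55487 Ensembl identifiers of a raw count table to gene symbols, and each of the 10 matched 1 identifier. RNA was sequenced from 12 mouse melanoma tumors. The 6 wild-type tumors carried BrafCA and Cdkn2af/f, and the 6 Arf6-null tumors carried Arf6f/f on top of those same alleles, so every tumor shares the activated Braf allele and the floxed Cdkn2a allele. Arf6 encodes a small GTPase of membrane traffic. The labels give no age, sex, strain, tumor site or Cre driver, and they do not say whether each tumor came from its own animal, so every p-value here is set against the spread of these samples alone. The series text calls the tumors of the genotypes matched, but no label gives pairs, so the tests are unpaired. In the labels the library numbers of the genotypes form separate blocks, and library order and genotype cannot be told apart.

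Mast cells are tissue-resident granulocytes that are common in skin. Their granules store histamine and proteases bound to serglycin, a proteoglycan, and the proteases are released when IgE on the high-affinity receptor FceRI is cross-linked by antigen, or when a Mas-related receptor is engaged by cationic peptides and drugs. Connective tissue mast cells of mouse skin are known for carboxypeptidase, chymases and tryptases together, whereas mucosal mast cells are known for Mcpt1 and Mcpt2. Survival and maturation depend on the receptor tyrosine kinase Kit and its ligand, and Gata2 and Mitf are among the transcription factors of the lineage.

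In GRCm38, all 10 genes are protein-coding, and 9 of the 10 lie on the minus strand. Mcpt4 (chr14:56059629-56062313) and Cma1 (chr14:55941451-55944675) belong to the chymase cluster, where Mcpt2, Mcpt9 and Mcpt8 flank Mcpt4 and Cma2 and Mcpt1 flank Cma1. The tryptase genes Tpsab1 (chr17:25343245-25345562) and Tpsb2 (chr17:25366305-25369098, plus strand) are 20742 bases apart. Mrgprb1 (chr7:48444113-48456342) and Mrgprb2 (chr7:48550965-48558086) are 94622 bases apart, with Mrgprx2 between them. Ms4a2 (chr19:11615523-11623719) lies among other Ms4a genes, with Ms4a3 5776 bases away, and Cpa3 (chr3:20215620-20242181) lies 6082 bases from Cpb1, another carboxypeptidase gene. Fcer1a is at chr1:173221284-173227214 and Hdc at chr2:126593667-126619299.

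The sequences before the start sites are shown because the levels of these genes vary together across the tumors and because GATA factors are textbook regulators of mast cell genes. RefSeq windows of 300 bases from GRCm38.p6, running from 250 bases before to 50 bases after the start, were matched for 8 of the 10 genes, all but Tpsb2 and Tpsab1. The windows of Cpa3, 2 chymases and both IgE receptor subunits follow, written 5′ to 3′ along the gene, with capitals marking each match on either strand to the word AGATAA, the word TGATAA, the word AGATAG or the word TGATAG.
Cpa3, chr3:20242132-20242431, minus strand: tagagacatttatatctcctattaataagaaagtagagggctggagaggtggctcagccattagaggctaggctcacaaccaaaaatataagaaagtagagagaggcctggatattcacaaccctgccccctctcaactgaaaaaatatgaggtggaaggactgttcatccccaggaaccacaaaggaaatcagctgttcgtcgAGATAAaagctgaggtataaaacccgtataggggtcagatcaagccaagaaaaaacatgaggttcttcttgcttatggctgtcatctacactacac
Mcpt4, chr14:56062261-56062560, minus strand: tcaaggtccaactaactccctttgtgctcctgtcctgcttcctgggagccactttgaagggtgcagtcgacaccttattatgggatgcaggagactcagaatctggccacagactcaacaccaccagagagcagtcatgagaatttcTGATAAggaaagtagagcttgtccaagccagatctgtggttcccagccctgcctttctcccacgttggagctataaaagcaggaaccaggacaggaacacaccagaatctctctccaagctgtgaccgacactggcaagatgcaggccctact
Cma1, chr14:55944626-55944925, minus strand: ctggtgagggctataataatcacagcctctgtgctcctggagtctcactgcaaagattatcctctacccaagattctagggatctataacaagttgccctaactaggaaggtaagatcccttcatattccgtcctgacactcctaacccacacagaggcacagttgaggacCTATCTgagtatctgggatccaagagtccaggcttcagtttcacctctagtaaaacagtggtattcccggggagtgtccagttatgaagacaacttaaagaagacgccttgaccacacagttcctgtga
Fcer1a, chr1:173227180-173227479, minus strand: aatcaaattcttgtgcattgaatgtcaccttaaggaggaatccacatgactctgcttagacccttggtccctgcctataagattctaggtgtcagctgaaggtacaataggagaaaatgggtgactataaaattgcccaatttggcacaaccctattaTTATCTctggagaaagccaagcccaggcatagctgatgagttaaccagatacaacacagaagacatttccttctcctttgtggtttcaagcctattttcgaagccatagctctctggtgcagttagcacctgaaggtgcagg
Ms4a2, chr19:11623670-11623969, minus strand: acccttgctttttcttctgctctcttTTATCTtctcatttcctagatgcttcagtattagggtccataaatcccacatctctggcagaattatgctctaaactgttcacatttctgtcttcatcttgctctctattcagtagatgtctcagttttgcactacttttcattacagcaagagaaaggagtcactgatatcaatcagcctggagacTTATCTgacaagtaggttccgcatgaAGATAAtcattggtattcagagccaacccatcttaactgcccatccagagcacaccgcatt
At least 1 of these 4 words was found in 8 of 8 windows, against 29.8% of the 32851 windows of the whole table. Ms4a2 had 3 matches and Mrgprb1 had 2, and 2 or more matches were present in 7.77% of all windows. In Cpa3 the match starts 46 bases before the start site. Of the other words searched on both strands, CANNTG was present in 6 of 8 windows (72.3% of all windows), TATAAA in 3 (13.6%), CATGTG, which is contained in CANNTG, in 1 (14.2%) and CACGTG, also contained in it, in 0 (7.15%). A match describes the letters of a window and not a bound site.

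Library totals lay between 21007954 and 45688253 counts, 22211738 to 30326419 in wild type and 21007954 to 45688253 in Arf6-null. Arf6 itself averaged 111 ± 24.9 CPM (counts after scaling all libraries to the same total; SD, n = 6) in wild-type tumors against 18.3 ± 3.73 CPM in Arf6-null ones, with all 6 Arf6-null tumors below the lowest wild-type tumor (log2 change -2.60, edgeR adjusted p = 0.000101). Of 7 melanocyte markers, 5 had too few counts to be tested, Mlana was at 0 counts in every library, and Pmel stood at 0.920 ± 0.328 CPM in wild type against 0.971 ± 0.171 CPM in Arf6-null, so the labelled melanoma was not marked by pigment genes here. Wild-type tumors 3, 4 and 5 were rich in skeletal muscle transcripts. All 4 Y-linked genes examined were below 1 CPM in 3 of 6 wild-type and 1 of 6 Arf6-null tumors, so their expression was unbalanced between genotypes; with it as a covariate Cpa3 was at -2.91 (edgeR adjusted p = 0.144), 9 of the 10 mast cell genes were still lower at an unadjusted p below 0.05, and calls over all genes were 31. The share of all genes lower at that unadjusted p is not given here for the covariate fit. Over all 16225 tested genes, 95 were called higher and 91 lower in Arf6-null in the fit without covariates. In bulk tumors, fewer mast cells and less RNA per mast cell cannot be told apart.

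All 10 genes were detected in every tumor, and all passed the filter on low counts, which asked for 0.342 CPM in 6 libraries. Ms4a2 reached that level in 6 wild-type libraries and 1 Arf6-null library, and Mrgprb2 in 5 and 2, so for these genes the filter rested mainly on the wild-type libraries. Summed over the 10 genes, the level ran from 57.6 to 926 CPM in wild-type and from 7.30 to 159 CPM in Arf6-null tumors. The 5 proteases made up 87.5% to 97.2% of that sum in wild-type tumors and 64.1% to 92.4% in Arf6-null tumors. Scaled to exon length, the mean level in wild type was highest for Tpsab1 at 94.1 CPM per kb, followed by Tpsb2 (57.6), Cma1 (47.9), Mcpt4 (45.9), Cpa3 (37.6), Fcer1a (6.83), Hdc (1.65), Mrgprb1 (1.45), Mrgprb2 (0.905) and Ms4a2 (0.757). Each neighbour in this order differed from the next by less than the SD of the higher gene over the 6 tumors, except Fcer1a and Hdc, 5.17 CPM per kb apart with an SD of 5.03. In Arf6-null tumors the order was Tpsab1 (12.3 CPM per kb), Mcpt4 (10.96), Cma1 (9.36), Tpsb2 (8.83), Cpa3 (5.16), Fcer1a (1.75), Hdc (0.977), Mrgprb1 (0.296), Mrgprb2 (0.170) and Ms4a2 (0.0711), and the gap between Hdc and Mrgprb1 (0.681) was the only one above the SD of its higher gene (0.628).

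Cpa3, the carboxypeptidase that trims peptides inside mast cell granules, ranged from 7.67 through a median of 40.2 to 136 CPM in wild-type tumors. Its level in Arf6-null tumors ranged from 0.396 through a median of 6.38 to 18.2 CPM. All 6 Arf6-null tumors lay below the wild-type median and 3 of them below the lowest wild-type tumor, tumor 3, so the genotypes overlapped. The means were 57.02 ± 48.2 and 7.83 ± 6.80 CPM (SD over 6 tumors each), 7.29 times higher in wild type. The fitted log2 fold change was -2.87 (SE 0.83; adjusted p = 0.0806 by edgeR). The exact two-sided permutation test over all splits of the 12 tumors into 2 groups of 6 gave p = 0.0108, with 0.00216 the smallest p that it allows.

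The chymases of connective tissue mast cells had the same highest and lowest tumors as Cpa3. Mcpt4, the protease closest in activity to human chymase, ran from 7.84 through 38.8 to 118 CPM in wild type and from 0.925 through 10.8 to 29.0 CPM in Arf6-null. Cma1, which despite its chymase name has elastase-like specificity in mice, ran from 6.01 through 44.5 to 109 CPM in wild type and from 1.09 through 10.6 to 17.1 CPM in Arf6-null. For both genes wild-type tumor 4 was highest, Arf6-null tumor 4 was lowest, and 2 (Mcpt4) or 1 (Cma1) of the Arf6-null tumors lay below the lowest wild-type tumor. The log2 fold change was -2.07 for Mcpt4 (SE 0.74, edgeR adjusted p = 0.131; exact permutation p = 0.0281) and -2.36 for Cma1 (SE 0.73, edgeR adjusted p = 0.0930; exact permutation p = 0.0281). Of the 50-base windows of their transcripts, 5.48% of Mcpt4 were shared, with Cma2 in each case, and 5.38% of Cma1 with Gm48934, so a small part of their reads could not be placed uniquely.

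Tryptases are trypsin-like proteases stored as tetramers on heparin. Tpsb2 ran from 12.8 through 63.5 to 193 CPM in wild type and from 1.68 through 13.6 to 25.8 CPM in Arf6-null. Tpsab1, whose expression is known to differ between inbred mouse strains, ran from 19.4 through 154 to 425 CPM in wild type and from 0.881 through 22.96 to 53.3 CPM in Arf6-null. In each case wild-type tumor 1 was highest, and 3 Arf6-null tumors lay below the lowest wild-type tumor. The difference in Tpsb2 was -2.71 on the log2 scale (SE 0.72, edgeR adjusted p = 0.0680; exact permutation p = 0.0108). For Tpsab1 it was -2.94 (SE 1.002, edgeR adjusted p = 0.115; exact permutation p = 0.0173). The 2 transcripts shared no 50-base window with any other gene.

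**Figure D1:**
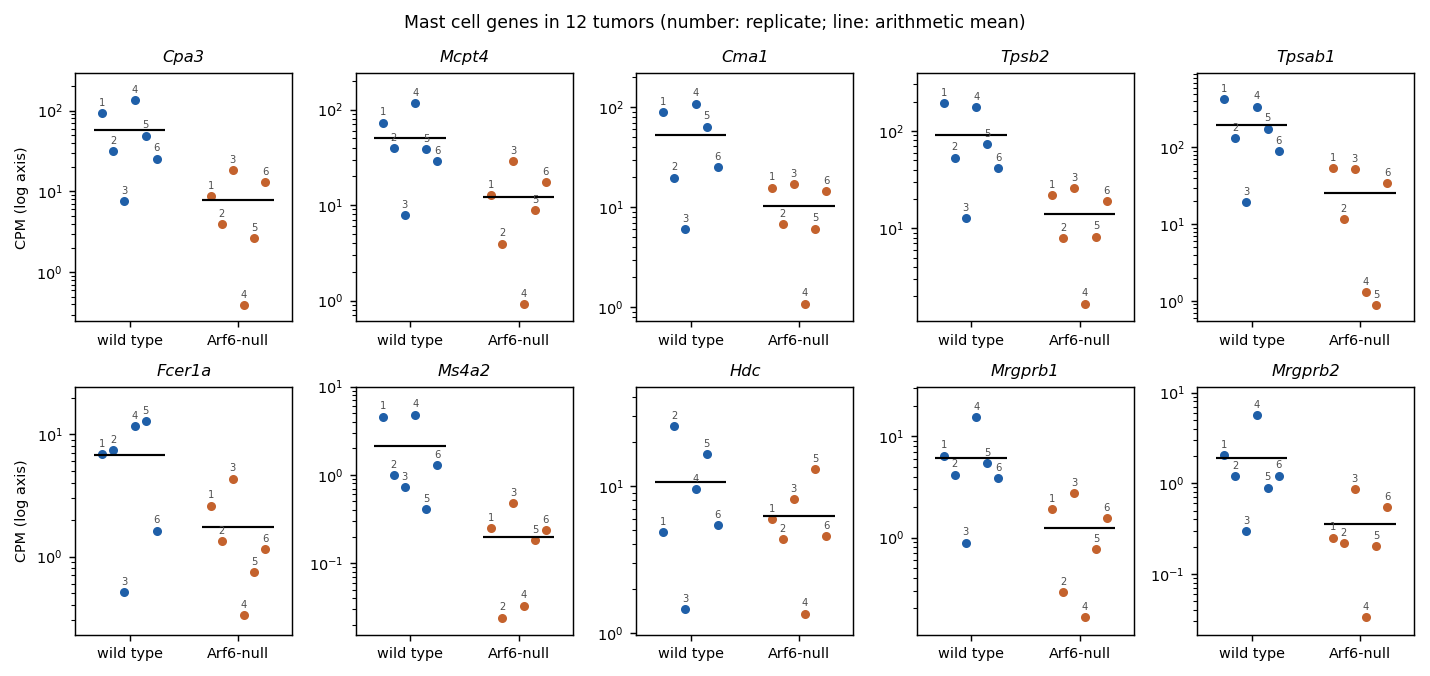
Level of each of the 10 mast cell genes in CPM (log axis) in the 6 wild-type and 6 Arf6-null tumors. Points are tumors, numbered by replicate, and the line is the arithmetic mean; each panel overlaps between genotypes, and Arf6-null tumor 4 is the lowest point in 8 of the 10 panels.

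The IgE receptor is built from the binding alpha chain Fcer1a, the signal-amplifying beta chain Ms4a2 and the gamma chain Fcer1g, which other Fc receptors share. Fcer1a ran from 0.511 through 7.16 to 12.8 CPM in wild type and from 0.330 through 1.24 to 4.34 CPM in Arf6-null. Wild-type tumors 5 and 4 were highest, and wild-type tumors 3 and 6 lay within the Arf6-null range. Its log2 change was -1.96 (SE 0.76, edgeR adjusted p = 0.152; exact permutation p = 0.0887). Ms4a2 ran from 0.410 through 1.14 to 4.80 CPM in wild type and from 0.0242 through 0.208 to 0.475 CPM in Arf6-null, where the libraries held between 1 and 16 counts. Only wild-type tumor 5 and Arf6-null tumor 3 crossed over, and the other 5 Arf6-null tumors were below every wild-type tumor. At -3.40 (SE 0.79, edgeR adjusted p = 0.0566; exact permutation p = 0.00433) it had the most negative log2 fold change of the 10 genes, and it passed the threshold when wild-type tumor 2 (edgeR adjusted p = 0.0406) or wild-type tumor 5 (0.0356) was left out. Fcer1g, which macrophages and other myeloid cells also express, averaged 111 ± 56.4 CPM in wild type against 122 ± 31.3 CPM in Arf6-null (log2 change 0.14, edgeR adjusted p = 0.821).

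Mrgprb2 is the receptor through which cationic drugs and peptides activate mouse mast cells without IgE, and Mrgprb1 is a neighbouring receptor of the same family. Mrgprb1 ran from 0.895 through 4.82 to 15.5 CPM in wild type and from 0.165 through 1.17 to 2.73 CPM in Arf6-null. Mrgprb2 ran from 0.298 through 1.202 to 5.65 CPM in wild type and from 0.0330 through 0.234 to 0.861 CPM in Arf6-null. Wild-type tumor 4 was highest and Arf6-null tumor 4 lowest for both, and 3 (Mrgprb1) or 4 (Mrgprb2) of the Arf6-null tumors fell below the lowest wild-type tumor. The log2 fold changes were -2.30 for Mrgprb1 (SE 0.73, edgeR adjusted p = 0.101; exact permutation p = 0.0195) and -2.40 for Mrgprb2 (SE 0.74, edgeR adjusted p = 0.0926; exact permutation p = 0.0130). Without wild-type tumor 4 that of Mrgprb2 was -1.66 (edgeR adjusted p = 0.186). The other genes of the locus carried little or no signal: Mrgprb4, Mrgprb5 and Mrgprb8 were at 0 counts in all 12 libraries, and Mrgprb3 had at most 2 counts in a library. Mrgprx2, which lies between Mrgprb1 and Mrgprb2, averaged 1.39 ± 1.42 CPM in wild type against 0.289 ± 0.235 CPM in Arf6-null (log2 change -2.23, edgeR adjusted p = 0.133; -1.51 without wild-type tumor 4).

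Hdc, the enzyme that makes histamine, differed less between the genotypes than the other 9 genes. It ran from 1.45 through 7.504 to 25.6 CPM in wild type and from 1.35 through 5.28 to 13.1 CPM in Arf6-null. Its highest tumors were wild-type 2, wild-type 5 and Arf6-null 5, and the ranges overlapped over most of their length. The means of 10.6 ± 8.98 and 6.24 ± 4.01 CPM differed by less than the wild-type SD (log2 change -0.76, SE 0.64, edgeR p = 0.256, adjusted p = 0.500; exact permutation p = 0.478). Histidine decarboxylase is also made by basophils and by some other myeloid cells.

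Taking the 10 genes as a list, edgeR called 0 at an adjusted p below 0.05, where 1.15% of all tested genes were called in either direction. At an unadjusted p below 0.05, 9 of the 10, all but Hdc, were lower in Arf6-null tumors, against 12.4% of all tested genes. The same 9 had a log2 fold change of -1 or less, against 7.61% of all tested genes. The median log2 fold change of the list was -2.38, and that of all tested genes was -0.03. None of the 10 had every Arf6-null tumor below every wild-type tumor, a pattern seen in 1.21% of tested genes. DESeq2 called the same 9 lower at an adjusted p below 0.05, against 6.63% of the 18935 genes it tested, with adjusted p from 0.000341 (Ms4a2) to 0.0489 (Fcer1a). limma-voom with sample weights called Ms4a2 alone (adjusted p = 0.0337), against 2.76% of genes called lower. Whether these differences pass a threshold therefore depended on the tool. The direction was negative for each of the 10 genes under every alternative in which that gene was tested.

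**Figure D2:**
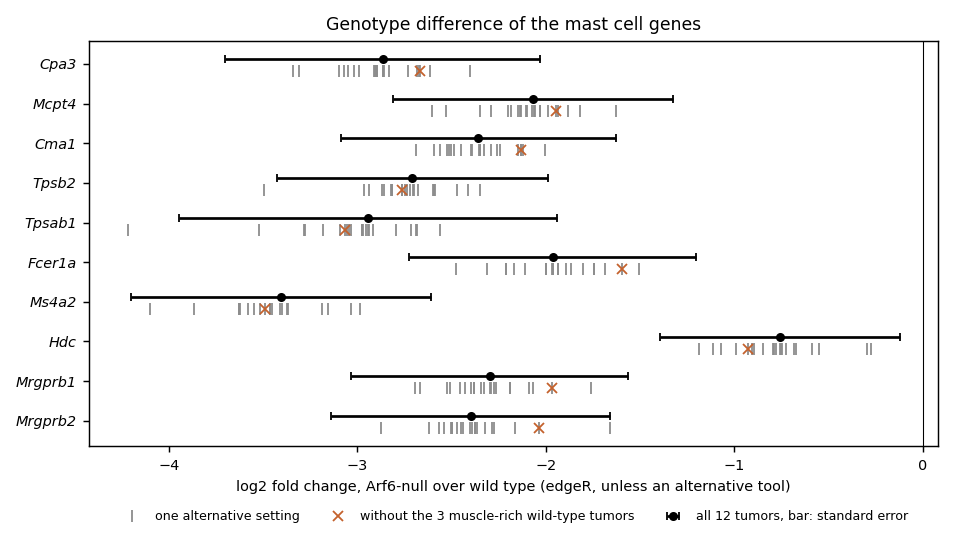
Log2 fold change (Arf6-null over wild type) of each gene; black points are the edgeR fit to all 12 tumors with its standard error, grey ticks are single alternative settings, and crosses leave out the 3 muscle-rich wild-type tumors. All values lie below 0, from -3.40 for Ms4a2 to -0.76 for Hdc among the black points.

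Other tissue markers moved with genotype beside these genes. At an unadjusted edgeR p below 0.05, 2014 (12.4%) of the 16225 tested genes were lower in Arf6-null and 1785 higher. All 11 skeletal muscle markers were lower in Arf6-null at an unadjusted edgeR p below 0.05 and 1, Pvalb, was called, a call lost when any of 9 tumors was left out (adjusted p = 0.0545 to 0.0913 by edgeR). The median log2 fold change was -4.74, and their summed level ran from 29.4 to 2589.5 CPM in wild type and from 6.43 to 72.9 CPM in Arf6-null. Leaving out wild-type tumors 3, 4 and 5 gave -2.66 for Cpa3 (edgeR adjusted p = 0.230), -2.76 for Tpsb2 (0.176) and -3.49 for Ms4a2 (0.126), with 0 of the 10 genes called and 8 lower at an unadjusted p below 0.05. Calls over all genes in that fit were 35, and its share of all genes lower at that unadjusted p is not given here. Wild-type tumors 3 and 4, both rich in muscle, were the lowest and the highest wild-type tumor for Cpa3. Of 10 fibroblast and dermal matrix markers, 4 were lower at an unadjusted p below 0.05 and 0 were called (median -1.03; summed level 6527 to 23726 CPM in wild type and 2295 to 15961 CPM in Arf6-null). Of 8 endothelial markers, 4 were lower and 0 called (median -0.83; 222 to 485 and 129 to 391 CPM), whereas 0 of 8 macrophage markers were lower or higher at that p (median -0.28). Of 7 Schwann cell markers 6 were tested, with 3 lower, 1 higher and 0 called, and none of the 3 tested keratinocyte markers or the 1 tested eosinophil marker passed that p. The part of fibroblast and endothelial content in the mast cell differences was not tested.

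The tumors kept nearly the same rank for most of the genes. Wild-type tumor 4 was the highest of the 12 for 6 genes and among the top 2 for 9, and wild-type tumor 1 was among the top 2 for 8. Wild-type tumor 3 was the lowest wild-type tumor for 9 genes, with a summed level of 57.6 CPM against 926 CPM in wild-type tumor 4. Among the Arf6-null tumors, tumor 4 was the lowest of all 12 for 8 genes and below the lowest wild-type tumor for all 10. Arf6-null tumor 3 was the highest of its genotype for 8 genes and was below the lowest wild-type tumor for 0.

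**Figure D3:**
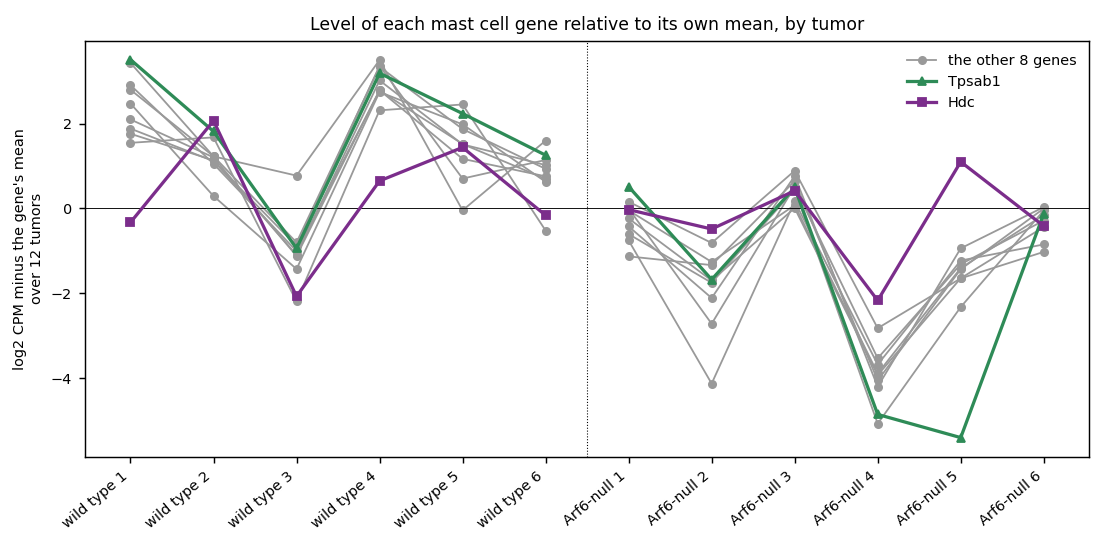
Log2 CPM of each mast cell gene minus that gene's own mean over the 12 tumors, by tumor; lines join the values of 1 gene within a genotype and carry no order. The proteases other than Tpsab1, with Mrgprb1 and Mrgprb2, run close together among the grey lines, whereas Fcer1a and Ms4a2, also grey, part from each other in several tumors; Hdc (squares) and, in Arf6-null tumor 5, Tpsab1 (triangles) leave the rest.

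Co-variation was measured against Cpa3 on log2 CPM, with 20 relations in each of 3 sets of tumors (all 12, wild type, Arf6-null) and adjustment over these 60 tests. Over all 12 tumors Pearson's r was 0.99 for Tpsb2, 0.98 for Mcpt4, 0.97 for Cma1, 0.96 for Mrgprb1, 0.96 for Mrgprb2 and 0.94 for Tpsab1. Spearman's rho for these 6 genes lay between 0.965 and 0.986, and each permutation p was 1e-05, the smallest that 100000 resamples can give (adjusted p = 0.0001). Without the 2 tumors farthest from the median of Cpa3, r stayed between 0.927 and 0.977. These values hold the genotype difference as well, so they were repeated within genotypes.

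Within the 6 wild-type tumors r was 0.989 for Tpsb2, 0.985 for Mcpt4, 0.976 for Tpsab1, 0.975 for Cma1, 0.968 for Mrgprb1 and 0.921 for Mrgprb2, with adjusted exact permutation p from 0.00758 to 0.0385. Within the 6 Arf6-null tumors r was 0.984 for Tpsb2, 0.983 for Cma1, 0.957 for Mrgprb2, 0.952 for Mcpt4, 0.896 for Mrgprb1 and 0.856 for Tpsab1, with adjusted exact permutation p from 0.00758 to 0.0362. By Pearson's r all 6 relations passed the threshold in each genotype. Without the 2 tumors of each genotype farthest from its median of Cpa3, 4 tumors were left. There r ran from 0.621 (Mrgprb2) to 0.990 (Tpsab1) in wild type. In Arf6-null it ran from 0.720 (Mcpt4) and 0.722 (Mrgprb1) to 0.949 (Cma1). By rank the wild-type values ran from 0.771 to 1.0 and the Arf6-null values from 0.771 to 1.0; the adjusted exact permutation p of rho was 0.0152 for Mrgprb1 in wild type and Mrgprb2 in Arf6-null, and 0.0588 to 0.193 for the other genes.

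The IgE receptor subunits followed Cpa3 less closely. Fcer1a had r = 0.869 and rho = 0.888 over 12 tumors (adjusted permutation p = 0.000514 and 0.00163), and r without the 2 farthest tumors was 0.799. Ms4a2 had r = 0.862 and rho = 0.839 (adjusted permutation p = 0.0016 and 0.00825), and r without those tumors was 0.797. Within genotypes Fcer1a gave r = 0.861 in wild type and 0.883 in Arf6-null (adjusted exact permutation p = 0.0446 and 0.046). By rank it did not pass, with rho = 0.714 and 0.829 (adjusted exact permutation p = 0.233 and 0.135). Without the 2 farthest tumors of each genotype r was 0.536 and 0.540. Ms4a2 gave r = 0.689 in wild type and 0.782 in Arf6-null, neither of which passed the threshold (adjusted exact permutation p = 0.228 and 0.128). For Hdc r was 0.531 and rho 0.524 (permutation p = 0.0746 and 0.0823, adjusted 0.144 and 0.183), and r was 0.242 without the 2 farthest tumors. Within genotypes r of Hdc with Cpa3 was 0.504 in wild type and 0.624 in Arf6-null (adjusted exact permutation p = 0.442 and 0.329). Over the 12 tumors r of Hdc with the other genes ran from 0.275 (Ms4a2) to 0.724 (Fcer1a). Among all 45 pairs of the 10 genes r ran from 0.275 to 0.988 with a median of 0.879, and the 36 pairs without Hdc ran from 0.635 to 0.988. With each genotype centred on its own mean, the 45 pairs ran from 0.170 to 0.979 with a median of 0.800. The 36 pairs then ran from 0.430 to 0.979.

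Ratios within a tumor do not depend on its library scaling. Tpsb2 stood at 1.30 to 4.25 times the Cpa3 level over the 12 tumors, a 3.26-fold range, while Cpa3 itself covered a 342-fold range. The range of the ratio to Cpa3 was 4.25-fold for Mcpt4, 4.36-fold for Cma1, 4.56-fold for Mrgprb2 and 5.98-fold for Mrgprb1. It was 13.1-fold for Fcer1a and 15.5-fold for Ms4a2, whose lowest ratio rested on 1 Ms4a2 count in Arf6-null tumor 2. For Tpsab1 it was 18.4-fold, with the lowest ratio, 0.331, in Arf6-null tumor 5. The highest ratios of Tpsb2, Cma1, Fcer1a, Mrgprb1 and Mrgprb2 were all in Arf6-null tumor 4, where Cpa3 had 12 counts. Hdc to Cpa3 ran from 0.0521 in wild-type tumor 1 to 4.90 in Arf6-null tumor 5, a 94.0-fold range.

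The tryptase pair split most in Arf6-null tumor 5 and less in Arf6-null tumor 4. Tpsab1 made up 59.6% to 71.2% of the summed tryptase counts in 10 of the 12 tumors. In Arf6-null tumor 5 it made up 9.70% (39 Tpsab1 counts against 363 of Tpsb2; 95% Wilson interval 7.18% to 12.99%), and in Arf6-null tumor 4 it made up 43.3% (39 counts against 51; 33.6% to 53.6%). The intervals cover counting error only. Arf6-null tumor 5 had more Tpsb2 (8.20 CPM) and Cma1 (6.10 CPM) than Arf6-null tumor 4 (1.68 and 1.09 CPM), but less Tpsab1 (0.881 against 1.29 CPM). Its ratio of Tpsab1 to Tpsb2 was 0.107, against 0.765 in Arf6-null tumor 4 and 1.48 to 2.47 in the other 10 tumors.

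**Figure D4:**
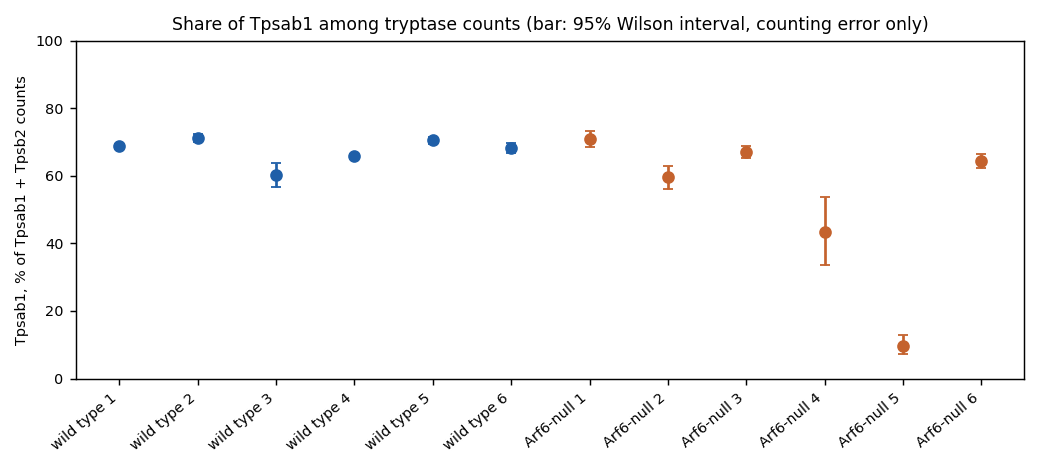
Tpsab1 as a percentage of Tpsab1 plus Tpsb2 counts in each tumor (blue, wild type; orange, Arf6-null), with 95% Wilson intervals for counting error. Arf6-null tumor 5 sits at 9.70% and Arf6-null tumor 4 at 43.3%, and the other 10 tumors lie between 59.6% and 71.2%.

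Kit, the stem cell factor receptor on which mast cells depend, ran from 9.59 through 14.7 to 23.7 CPM in wild type and from 1.22 through 5.199 to 8.57 CPM in Arf6-null. All 6 Arf6-null tumors were below the lowest wild-type tumor. The means were 15.4 ± 5.27 and 5.28 ± 2.64 CPM (log2 change -1.54, SE 0.40, edgeR adjusted p = 0.0629, exact permutation p = 0.00216, the smallest possible). Kit passed the threshold without Arf6-null tumor 6 (edgeR adjusted p = 0.0434), a fit with 672 calls over all genes. Without any other single tumor the edgeR adjusted p of Kit ran from 0.0527 to 0.126. Kit followed Cpa3 with r = 0.896 and rho = 0.832 over the 12 tumors (adjusted permutation p = 0.00127 and 0.0096), and r was 0.814 without the 2 farthest tumors. Within genotypes r was 0.937 in Arf6-null (adjusted exact permutation p = 0.0367) and 0.428 in wild type (0.524). By rank Kit did not pass in Arf6-null (rho = 0.886, adjusted exact permutation p = 0.0833). Its ligand Kitl averaged 82.6 ± 18.3 CPM in wild type against 62.7 ± 55.1 CPM in Arf6-null (log2 change -0.40, edgeR adjusted p = 0.592; -1.01 and 0.0536 without Arf6-null tumor 3), and its r with Cpa3 was 0.492 with rho = 0.608 (adjusted permutation p = 0.195 and 0.0961; r = 0.594 without the 2 farthest tumors).

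Of the cell type scores, each the mean log2 CPM of a marker list, 2 passed the threshold with Cpa3 over 12 tumors. The fibroblast score gave r = 0.814 and rho = 0.678 (adjusted permutation p = 0.0086 and 0.0619), with r = 0.646 without the 2 farthest tumors. Within genotypes r was 0.230 in wild type and 0.943 in Arf6-null (adjusted exact permutation p = 0.75 and 0.0333). Its rho in Arf6-null was 0.886 and did not pass (adjusted exact permutation p = 0.0833). The endothelial score gave r = 0.664 and rho = 0.517 (adjusted permutation p = 0.0405 and 0.189), with r = 0.615 without those tumors; on log2(CPM + 1) it no longer passed (r = 0.613, adjusted permutation p = 0.0729). The sign of r differed within genotypes, -0.487 in wild type and 0.870 in Arf6-null (adjusted exact permutation p = 0.468 and 0.0367). By rank the endothelial score did not pass in Arf6-null (rho = 0.886, adjusted exact permutation p = 0.0833). Neither relation passed the threshold within wild type. Skeletal muscle gave r = 0.306 and rho = 0.147 and macrophages r = 0.442 and rho = 0.462 (adjusted permutation p of r = 0.465 and 0.256). The basophil score gave r = 0.138 and rho = 0.175 (adjusted permutation p = 0.759 and 0.681), with r = 0.902 in wild type and 0.250 in Arf6-null (adjusted exact permutation p = 0.0362 and 0.75). Its rho in wild type was 0.886 and did not pass (adjusted exact permutation p = 0.0833). This score averaged Mcpt8, Cd200r3 and Il3ra, and mast cells also express Cd200r3. Over the 12 tumors r with Cpa3 was 0.857 for Cd200r3 and -0.329 for Mcpt8, values that hold the genotype difference as well. Within wild type r was 0.610 for Cd200r3 and 0.797 for Mcpt8. Within Arf6-null it was 0.785 and 0.00637.

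Among 11 further granule and mediator genes, 10 were tested, 0 were called, 3 were lower and 1 higher at an unadjusted edgeR p below 0.05, and the median log2 fold change was -0.36. Of all 16225 tested genes, 2014 (12.4%) were lower and 1785 higher at that p. Slc18a2, which loads histamine and serotonin into granules, ran from 0.562 through 1.10 to 5.33 CPM in wild type and from 0 through 0.105 to 0.627 CPM in Arf6-null (log2 change -3.29, edgeR adjusted p = 0.0677), and 5 of the 6 Arf6-null tumors were below the lowest wild-type tumor. It passed the threshold without wild-type tumor 2 (edgeR adjusted p = 0.0486) or Arf6-null tumor 6 (-4.06, 0.0381), fits with 766 and 672 calls over all genes. Without any other single tumor the edgeR adjusted p of Slc18a2 ran from 0.0584 to 0.133. Alox5, which starts leukotriene synthesis, had a log2 fold change of -1.42 (edgeR adjusted p = 0.0962, and 0.0419 without Arf6-null tumor 6). 2 genes of this list that many other cells express were not lower on average in Arf6-null: Srgn averaged 71.7 ± 47.6 and 84.6 ± 17.6 CPM, and Cd63 695 ± 177 and 1025 ± 251 CPM (log2 change 0.56, edgeR adjusted p = 0.119).

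Among 10 receptors and lineage factors, 9 were tested and 0 were called, with a median of -0.59. At an unadjusted edgeR p below 0.05, at which 12.4% of all tested genes were lower, 5 were lower and 0 higher. Besides Kit these included Tal1, a blood-lineage transcription factor (-1.56, edgeR adjusted p = 0.0594), Cd200r3, an activating receptor of mast cells and basophils (-2.84, 0.0611), and Il1rl1, the receptor of interleukin-33 (-1.55, 0.150). Tal1 passed the threshold without wild-type tumor 2 (0.0470), wild-type tumor 5 (0.0451) or Arf6-null tumor 6 (0.0292), and Cd200r3 without wild-type tumor 5 (0.0415). Calls over all genes were 766, 537 and 672 in the fits without these tumors, against 186 with all 12 tumors. Gata2 averaged 9.45 ± 1.98 CPM in wild type against 9.88 ± 8.29 CPM in Arf6-null (0.07, edgeR adjusted p = 0.957), and Mitf averaged 18.6 ± 6.74 and 18.2 ± 8.78 CPM. Of the 12 FceRI signalling genes, 12 were tested and 0 were called, with a median of -0.15. At an unadjusted p below 0.05, 1 of them, Inpp5d, was lower (-0.71, edgeR adjusted p = 0.107), against 12.4% of all tested genes.

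Of 9 growth and recruitment ligands, 6 were tested, 0 were called and 1 was higher at an unadjusted edgeR p below 0.05, against 1785 of all 16225 tested genes. Il3 and Il9 were at 0 counts in all libraries. Il33, an alarmin that acts on mast cells through Il1rl1, ran from 8.98 through 63.5 to 257 CPM in wild type and from 165 through 510.4 to 729 CPM in Arf6-null. Of the 6 Arf6-null tumors 5 were above the highest wild-type tumor (log2 change 2.60, SE 0.69, edgeR adjusted p = 0.0680; 3.40 and 0.0238 without wild-type tumor 5).

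Of the 8 remaining serine proteases of the list, 5 were tested, 0 were called, and 2 were lower and 1 higher at an unadjusted edgeR p below 0.05. At that p 2014 (12.4%) of all 16225 tested genes were lower and 1785 higher. Mcpt1, a chymase of mucosal mast cells, stood at 882 CPM in wild-type tumor 1 and between 1.01 and 24.1 CPM in the other 5 wild-type tumors, and ran from 0.0330 through 2.56 to 13.9 CPM in Arf6-null. Its log2 change was -4.97 (SE 1.83, edgeR adjusted p = 0.137), and -0.54 without wild-type tumor 1. Mcpt2, the other mucosal protease, stood at 657 CPM in wild-type tumor 1 and between 5.22 and 18.4 CPM in the other 5. All 6 Arf6-null tumors had less Mcpt2 than the lowest wild-type tumor, between 0.0660 and 4.95 CPM (log2 change -5.52, SE 1.48, edgeR adjusted p = 0.0682). Without wild-type tumor 1 the log2 change was -2.23 (edgeR adjusted p = 0.135) and the wild-type mean 12.3 ± 5.27 CPM (SD over 5 tumors), against 2.60 ± 2.01 CPM in Arf6-null; without wild-type tumor 2 the adjusted p was 0.0497. Over the 12 tumors r with Cpa3 was 0.73 for Mcpt2 and 0.59 for Mcpt1, as a description with no test. These values hold the genotype difference as well. Within wild type r was 0.270 for Mcpt2 and 0.449 for Mcpt1, and within Arf6-null 0.717 and 0.606. In wild-type tumor 4, which had the most Cpa3, Mcpt1 was at 3.84 CPM and Mcpt2 at 10.3 CPM.

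Mcpt8, a protease of basophils that lies next to Mcpt4, had the opposite sign of log2 change. It ran from 0.213 through 2.13 to 4.03 CPM in wild type and from 1.23 through 10.1 to 140.3 CPM in Arf6-null, where tumors 3 and 5 were highest (140.3 and 44.2 CPM). The log2 change came to 4.18 (SE 1.08, edgeR adjusted p = 0.0650), and 5 of 6 Arf6-null tumors were above the highest wild-type tumor. Without Arf6-null tumor 3 the log2 change was 2.90. Without Arf6-null tumor 6 the edgeR adjusted p was 0.0358, in a fit with 672 calls over all genes. Without any other single tumor the edgeR adjusted p of Mcpt8 ran from 0.0619 to 0.120. Of the 4 basophil markers 3 were tested, with 1 lower (Cd200r3, -2.84) and 1 higher (Mcpt8) at an unadjusted edgeR p below 0.05 and 0 called. At that p 2014 (12.4%) of all 16225 tested genes were lower and 1785 higher. Prss34, another basophil protease, had at most 4 counts in a library, and Il3ra, which other myeloid cells share, averaged 29.3 ± 11.7 and 39.6 ± 7.10 CPM. Summed over the 4 markers, to which Il3ra and Mcpt8 gave most, the level ran from 17.4 to 53.1 CPM in wild type and from 29.5 to 178 CPM in Arf6-null. Fcer1a, Ms4a2, Hdc and Cd200r3 are also expressed by basophils, and the part of basophil RNA in their levels was not tested.

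**Figure D5:**
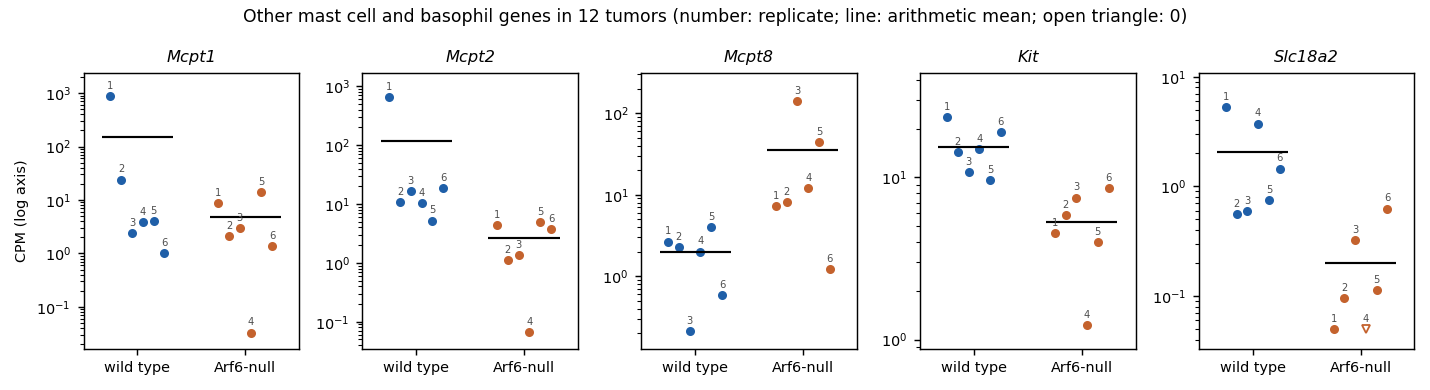
Level in CPM (log axis) of the mucosal mast cell proteases Mcpt1 and Mcpt2, the basophil protease Mcpt8, Kit and Slc18a2 in the 12 tumors; points are tumors numbered by replicate, lines are arithmetic means and the open triangle is a value of 0. Wild-type tumor 1 stands alone for Mcpt1 (882 CPM) and Mcpt2 (657 CPM), and the 6 Arf6-null tumors lie below the wild-type tumors for Mcpt2 and Kit.

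Genes whose pattern was most like Cpa3 were ranked by Pearson's r over the 12 tumors after each genotype was centred on its own mean, as a description with no test. Of the other 9 mast cell genes, 6 were in the top 8 of all tested genes: Tpsb2 was at rank 1 (r = 0.98), Cma1 2, Mcpt4 3, Mrgprb1 4, Mrgprb2 5 and Tpsab1 8. Fcer1a was at rank 18, Ms4a2 at 141 and Hdc at 743, while Kit was at 40 and Slc18a2 at 46. Over all genes the median r was 0.00 and the 95th percentile 0.53. Outside the 10 genes, and among named protein genes with a mean of at least 1 CPM, the 12 most like it were Rnaseh1 (r = 0.90), Ctsk (0.86), Zfp747 (0.86), Vipr1 (0.85), C1qtnf12 (0.85), Trim44 (0.85), Serpinb1a (0.84), Bicc1 (0.83), Fam110b (0.83), Agtr2 (0.82), Cdkn1c (0.81) and Map10 (0.81). Without centring, r over the 12 tumors was 0.09 for C1qtnf12, whose log2 change was 0.28. It was 0.74 for Zfp747 and 0.81 to 0.93 for the rest.

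The 12 genes differed widely in level and range. Rnaseh1, a ribonuclease that removes RNA from DNA hybrids, moved only between 16.7 and 22.9 CPM over the 12 tumors, so its likeness to Cpa3 is one of order and not of size. Ctsk, a collagen-degrading cathepsin, ran from 54.8 through 141 to 200.1 CPM in wild type and from 7.83 through 78.5 to 120.1 CPM in Arf6-null. Vipr1, a receptor for vasoactive intestinal peptide, ran from 1.02 to 3.84 CPM in wild type and from 0.0330 to 1.202 CPM in Arf6-null (log2 change -1.84, edgeR adjusted p = 0.109). Serpinb1a, an inhibitor of neutrophil-type serine proteases, averaged 14.0 ± 8.28 and 5.17 ± 3.73 CPM (-1.43, edgeR adjusted p = 0.124).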

How the data were processed

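The authors deposited raw read counts for each Ensembl gene identifier, not normalized. Per the submitters' processing notes, STAR 2.7.3a, featureCounts 1.6.3 and DESeq2 1.26.0 were used with GRCm38 (mm10), and per the labels' protocols libraries were made with a stranded poly(A) kit. For the strand setting, multiply mapped reads and annotation release, the value is not given in the sources used here. Groups came from the genotype label. Symbols and coordinates came from GENCODE M21, which named 55227 of 55487 identifiers, and the others held at most 0.0019% of a library's counts. Replicate numbers follow accession order and pair nothing.

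Genes were filtered with filterByExpr (minimum count 10), libraries scaled by TMM, and the genotypes tested in edgeR 4.0.16 (R 4.3.3) by quasi-likelihood, adjusted by Benjamini-Hochberg over 16225 genes at a threshold of 0.05. A negative log2 fold change means less in Arf6-null. Log2 CPM used a prior count of 2. The pipeline was tested on simulated data. Alternatives were DESeq2 1.42.0, limma 3.58.1 (voom), other scalings and filters, thinned counts, covariates for Y-linked and muscle expression, and left-out libraries. The named genes were the 10 members, Arf6, Kit, Kitl, up to 4 genes with the smallest p of each of the other lists, and the 12 most like Cpa3 by centred r; Fcer1g, Gata2, Mitf, Srgn, Il3ra, Prss34, Il3, Il9, Mlana and the Mrgprb locus with Mrgprx2 were added after their values were seen. The members and lists were chosen with earlier results of these data known. Shared sequence was counted as identical 50-base windows of GENCODE transcripts.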

Additional observations from a re-analysis of the deposited data

Results flagged for a closer look

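Of 176 sets of 6 tumors examined (a gene or a ratio within 1 genotype, on the log2 scale), 9 had a highest or lowest tumor that stood away from the others by more than Dixon's 95% critical value of 0.625. Chance alone singles out about 1 in 20 sets, so 9 of 176 is close to what chance gives. The 9 sets were not independent. Both Tpsab1 ratios of Arf6-null tumor 5 hold the same Tpsab1 counts, and several Y-linked genes were from Arf6-null tumor 6. Among ratios of mast cell genes, Arf6-null tumor 5 had a log2 ratio of Tpsab1 to Cpa3 of -1.585, against 1.40 to 2.60 in the other 5 Arf6-null tumors. Its log2 ratio of Tpsab1 to Tpsb2 was -3.20, against -0.38 to 1.29. Wild-type tumor 5 had a log2 ratio of Mrgprb1 to Mrgprb2 of 2.58, against 1.45 to 1.804 in the other 5 wild-type tumors, and rested on 24 counts of Mrgprb2. Wild-type tumor 1 stood high for Mcpt2, at 9.36 log2 CPM against 2.64 to 4.28, and for Cma2, at 1.98 log2 CPM against 0.06 to 0.34. Arf6-null tumor 6 stood high for Tal1, at 1.36 log2 CPM against 0.61 to 0.85. The same tumor stood low for the Y-linked genes Eif2s3y (0.30 log2 CPM against 6.05 to 6.24), Uty (0.0735 against 4.57 to 5.12) and Ddx3y (0.21 against 5.70 to 6.37), and the labels give no sex. These genes were also below 1 CPM in 3 wild-type tumors, a spread within which no single tumor stood out.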

How the results depend on the processing

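Each of the 10 mast cell genes kept a negative log2 fold change in all 20 to 22 alternatives it was tested in. Over those alternatives Cpa3 ran from -3.34 to -2.40, Tpsb2 from -3.50 to -2.35, Ms4a2 from -4.10 to -2.99 and Hdc from -1.19 to -0.28. The count of these genes at an adjusted p below 0.05 was 0 with edgeR, 9 with DESeq2, 1 with limma-voom, and 0 to 1 when single tumors were left out. The count at an unadjusted p below 0.05 was 5, of 5 tested, with the filter of 10 CPM in 6 libraries, and 8 to 9 when single tumors were left out. Fcer1a, Ms4a2, Hdc, Mrgprb1 and Mrgprb2 were not tested with that filter, and Ms4a2 was also not tested with thinned counts. The share of all genes lower at an unadjusted p below 0.05 is given here only for the main edgeR fit (12.4%). Calls over all genes moved more: 186 in the fit to all 12 tumors, 2241 with DESeq2, 931 with limma-voom, 31 with Y-linked expression as covariate, 35 without the 3 muscle-rich wild-type tumors and 16 with the muscle score as covariate. Left-out tumors gave 25 to 766 calls: 27, 766, 37, 35, 537 and 27 without wild-type tumors 1 to 6, and 25, 35, 122, 69 and 672 without Arf6-null tumors 1, 2, 3, 4 and 6. Among these fits, Ms4a2, Kit, Slc18a2, Alox5, Tal1, Cd200r3, Mcpt2, Mcpt8 and Il33 passed the threshold only where 766, 537 or 672 genes were called. On log2(CPM + 1), r between Cpa3 and the basophil score, 0.14 on the main scale, turned to -0.21 and that with the endothelial score was 0.613 with an adjusted permutation p of 0.0729; the cause was not tested. No paired analysis was possible because the labels give no replicate number that the genotypes share. Depth limited Ms4a2 and Mrgprb2, which had as few as 1 count in an Arf6-null library.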
